A study of Mus musculus with 6 samples.

Results

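AP-1 and its small MAF relatives are dimeric transcription factors built on a basic leucine zipper, and 10 of their genes are described here: FOS, FOSL1, FOSL2, JUN, JUNB, JUND, ATF3, MAFF, MAFG and MAFK. They were taken by name from the annotation of a human expression array, with every probe set that lists 1 of these symbols alone. Of the 10 genes, 9 had a probe set, 23 probe sets in all, and MAFK was not analysed here. Of the 19775 genes with a probe set of their own, 10271 had a mean log2 intensity of at least 4 and were tested. Among the members 7 passed this filter, through 15 of their probe sets, while FOS and FOSL1 did not.

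The arrays hold RNA from subcutaneous xenograft tumours in SCID mice, grown from NCI-H2228, a human lung adenocarcinoma line with an EML4-ALK gene fusion. The labels name the mouse as organism, while the probe sets are for human genes. SCID mice lack working T and B cells and keep other host cells. The mice were dosed orally with vehicle (0 mg/kg) or with CH5424802 (alectinib), an ALK kinase inhibitor, at 4 mg/kg or at 20 mg/kg, and the tumours were removed after 6 h. There are 2 arrays for each of these 3 groups, all of this 1 line. Whether both arrays of a group stem from different mice is not stated in the labels, so a p-value here reflects the spread between arrays, which may be technical.

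ALK signals through RAS and ERK. In this pathway ERK and its downstream kinases act on ternary complex factors at promoters such as that of FOS, and ERK phosphorylation also stabilises FOS and FOSL1 proteins. JUN proteins pair with each other or with FOS proteins, and these dimers bind TPA response elements in genes of invasion, inflammation and the cell cycle. Small MAF proteins (MAFF, MAFG, MAFK) have no transactivation domain: as dimers of their own they act as repressors, and with the CNC factors, such as NRF2, they activate antioxidant genes.

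Values are log2 of the authors' linear intensities after GCRMA, which sets a common floor at log2 2.19 (intensity 4.58). Changes near this floor are understated. Some probe sets also repeat 1 value far above the floor, across groups. For FOSL2, 228188_at read 340 in vehicle replicate 2 and both 4 mg/kg arrays. For JUN, 213281_at read 199 in both 4 mg/kg arrays and 20 mg/kg replicate 2. Whether such equal values are measured levels was not tested. Probe sets differ in affinity, so levels are compared between arrays for 1 probe set and never between genes. Same-group arrays had an r of 0.992 to 0.997 over the tested genes. The 5′ control probe set of 18S ribosomal RNA was higher with vehicle, at 1713 and 4058, than in the 4 treated arrays, which lay between 374 and 637. Every comparison with vehicle below carries this difference, and its part in the results was not tested. The 3′ minus 5′ difference of control probe sets stayed between -0.25 and -0.01 log2 for GAPDH and between -0.02 and 0.10 for ACTB, with the groups overlapping.

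All 10 epithelial and lung adenocarcinoma markers were measured above the filter. Their summed intensity was 100756 and 112246 with vehicle, 106513 and 108599 at the lower dose and 90270 and 97258 at the higher, lowest in both 20 mg/kg arrays, and KRT18, a simple epithelial keratin, fell at 20 mg/kg (log2 -1.54, SE 0.18, adjusted p = 0.0416). That call was lost without any 1 of the 6 arrays, with values from -1.75 to -1.33. Leukocyte markers summed to between 128 and 132 in every array over 7 genes, and PTPRC, CSF1R and CD163 lay within 1 log2 unit of the floor in all of them. Fibroblast markers summed to between 35942 and 40330 over 8 genes, with LUM, PDGFRA and PDGFRB near the floor. Endothelial markers summed to between 455 and 561 over 6 genes, with VWF, CDH5, TEK and CLDN5 near the floor. Host RNA is of the mouse, and its reading on probes for human genes was not measured. In such bulk tumour RNA, fewer cells of a type and less RNA per cell cannot be told apart.

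At 20 mg/kg MAFF, MAFG and FOSL2 fell, in a comparison that called 4.33% of all tested genes, and MAFF fell by far the most, 9-fold. Without either 20 mg/kg array none of the 3 passed. No member rose. JUNB was lower in both arrays than in either vehicle array without passing the test, and JUN, JUND and ATF3 lay within 0.1 log2 units of vehicle. None passed at 4 mg/kg, although 6 of the 7 tested members read lower in both arrays than in both vehicle arrays, as 14.8% of all tested genes did. Between the doses MAFF alone passed, lower at 20 mg/kg, and with no level filter MAFG passed in its place. Changes were tested with limma over all 10271 genes, with Benjamini-Hochberg adjustment and a threshold of 0.05.

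**Figure D1:**
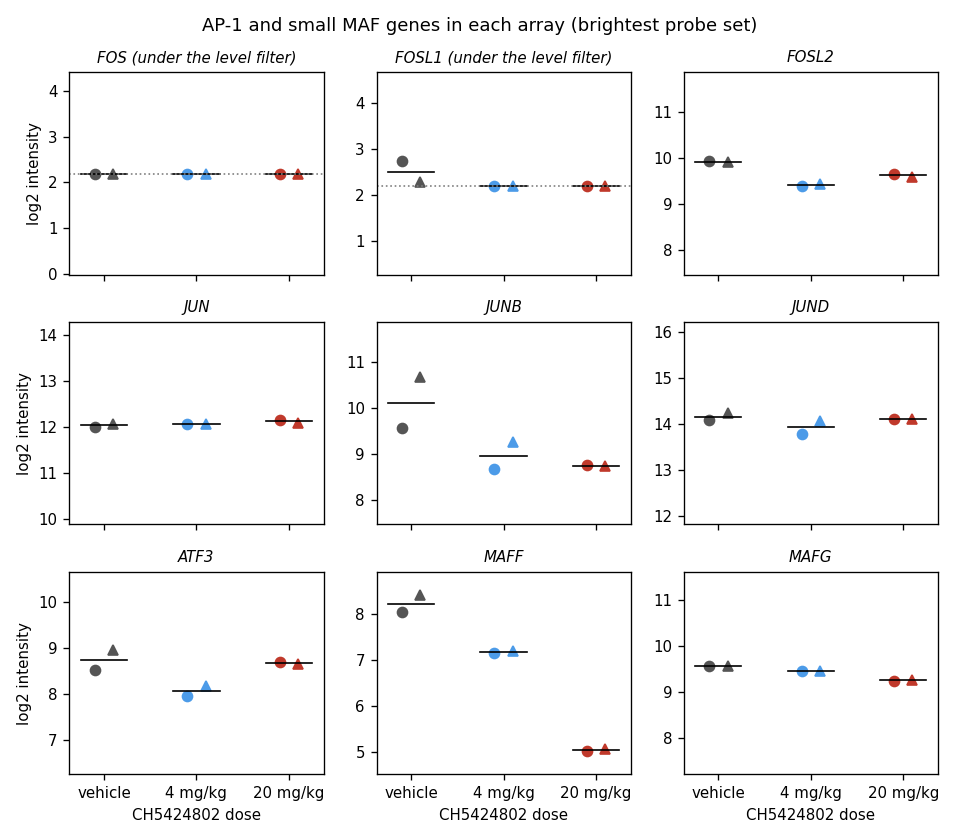
Log2 intensity (vertical axis, panels of equal span) of the brightest probe set of 9 genes in each of the 6 arrays, by dose of CH5424802 (horizontal axis). Circles are replicate 1, triangles replicate 2, black bars group means and the dotted line the intensity floor; MAFF steps down with each dose, JUNB is lower at both doses with vehicle arrays far apart, and FOS lies on the floor throughout.

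Among the small MAF genes, MAFF, which is induced by cytokines and stress, read log2 8.04 and 8.40 with vehicle, 7.16 and 7.20 at the lower and 5.02 and 5.08 at the higher dose. The 3 groups do not overlap and are ordered by dose, and the 20 mg/kg arrays were close to each other. Against vehicle MAFF fell by 3.17 at 20 mg/kg on the log2 scale (SE 0.14, 95% interval -3.57 to -2.77, adjusted p = 0.0119, n = 2 arrays per group), from a mean intensity of 298 to 33.1. At 4 mg/kg it was at log2 -1.04 (SE 0.14, adjusted p = 0.15), or 145 in intensity.

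The fall of MAFF between the doses was 2.13 on the log2 scale (SE 0.14, adjusted p = 0.0462), 4.37-fold. No vehicle array enters this difference of means, but the vehicle arrays do enter its SE and adjusted p. With the compared arrays alone MAFF was not called (adjusted p = 0.0658). This call was lost with no level filter (adjusted p = 0.155), with an offset of 16 before the log (-1.71, adjusted p = 0.0576) and with probe sets as features (adjusted p = 0.0546). It was also lost without either vehicle array (adjusted p = 0.0658, the value being still -2.13), without either 4 mg/kg array (-2.15 and -2.11) and without either 20 mg/kg array (-2.10 and -2.15). The call at 20 mg/kg against vehicle was lost without either 4 mg/kg array (-3.17, adjusted p = 0.0504) and without either 20 mg/kg array (-3.15 and -3.20, adjusted p = 0.0827 and 0.0823). The value at 4 mg/kg passed without vehicle replicate 1 (-1.23) and with arrays centred on their median (-1.14, adjusted p = 0.0119). In every one of these fits MAFF kept its direction. Where 1 array was left out, MAFF stayed within 0.2 log2 units of its value from all arrays.

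A dim probe set of MAFF, 205193_at, read 3.98 and 3.79 with vehicle, 3.63 in both 4 mg/kg arrays, and 3.63 and 3.44 at 20 mg/kg. It lay under the level filter and was not tested. Its vehicle arrays were the highest, as in the brighter set, with a difference of -0.35 at 20 mg/kg. The mean of both probe sets gave MAFF at -1.76 for 20 mg/kg against vehicle, -0.65 for 4 mg/kg against vehicle and -1.11 between the doses.

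MAFG, a widely expressed small MAF and a partner of NRF2, moved the same way on a far smaller scale. It read 9.57 and 9.56 with vehicle, 9.46 in both 4 mg/kg arrays and 9.24 and 9.25 at 20 mg/kg. Again the groups were ordered by dose with no overlap, and the arrays of each group differed by about 0.01. MAFG fell by 0.32 at 20 mg/kg (SE 0.019, adjusted p = 0.0191), 1.25-fold. It was at -0.10 (SE 0.019, adjusted p = 0.167) at 4 mg/kg and at -0.21 (SE 0.019, adjusted p = 0.0769, or 0.0382 with no level filter) between the doses. The call at 20 mg/kg was lost without vehicle replicate 2 (-0.32, adjusted p = 0.0524) and without either 20 mg/kg array (-0.31 and -0.32, adjusted p = 0.0876 and 0.0853), and also with re-quantiled (-0.31, adjusted p = 0.107) and with centred arrays (-0.35, adjusted p = 0.0791). The mean over its probe sets was -0.16, still called. The other one, 224466_s_at, lay on the floor in all 6 arrays.

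Among the FOS genes, FOS itself, the founding immediate early partner of JUN, lay on the intensity floor in all 6 arrays through its 1 probe set, so neither a level nor a change can be given. FOSL1, or FRA1, which accumulates where ERK signalling is sustained, read 2.72 and 2.28 with vehicle and was on the floor in the other 4 arrays. The vehicle arrays were thus the only ones above the floor, but all 6 lay within 1 log2 unit of it, so no fold is given.

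FOSL2, or FRA2, is the one FOS gene read well above the floor, and its probe sets differed in direction. The brightest, 225262_at, read 9.93 and 9.90 with vehicle, 9.38 and 9.42 at the lower dose and 9.64 and 9.59 at the higher. All treated arrays were lower than vehicle, and the lower dose gave the lowest values. FOSL2 fell by 0.30 at 20 mg/kg (SE 0.032, adjusted p = 0.0382), 1.23-fold. It was at -0.51 (SE 0.032, adjusted p = 0.0728) at 4 mg/kg, and the 20 mg/kg arrays were 0.21 above those at 4 mg/kg (SE 0.032, adjusted p = 0.124).

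The call of FOSL2 at 20 mg/kg was lost without any 1 of the 6 arrays, with values from -0.33 to -0.27 and adjusted p from 0.0703 to 0.124, and also with re-quantiled (-0.29, adjusted p = 0.121), with centred arrays (-0.33, adjusted p = 0.0994) and with no level filter (adjusted p = 0.104), among other settings. The value at 4 mg/kg passed without vehicle replicate 1 (-0.50, adjusted p = 0.0478) and with centred arrays (-0.61, adjusted p = 0.0281). The second brightest probe set, 228188_at, lay between 8.41 and 8.42 in both vehicle and both 4 mg/kg arrays and at 9.09 and 8.77 at 20 mg/kg. Here the 20 mg/kg arrays were the highest (log2 0.51, SE 0.12, adjusted p = 0.122 with probe sets as features). Another, 218880_at, read 8.61 and 8.84 with vehicle, 7.67 and 7.96 at 4 mg/kg and 7.63 in both 20 mg/kg arrays.

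This probe set, 218880_at, was lower in all treated arrays, at -1.10 (SE 0.14, adjusted p = 0.053) for 20 mg/kg and -0.91 (SE 0.14, adjusted p = 0.166) for 4 mg/kg against vehicle. Of the dimmer ones, 205409_at read 5.20 in vehicle replicate 1 and 4.88 in the other 5 arrays, and the last stood at 2.42 in all. The transcripts of FOSL2 that each probe set reads were not examined, and the difference between probe sets was not tested. With the mean of all its probe sets FOSL2 was at -0.21 at 20 mg/kg (adjusted p = 0.0805).

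**Figure D2:**
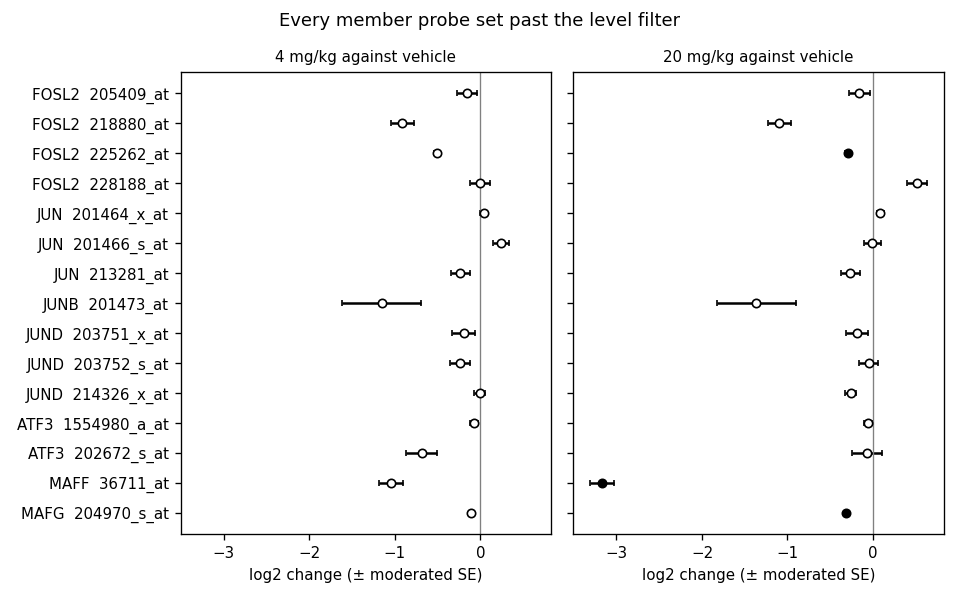
Log2 change against vehicle (horizontal axis, bars are limma's moderated SE) of the 15 member probe sets past the level filter, at 4 mg/kg (left) and 20 mg/kg (right), from a fit with probe sets as features. Filled points passed an adjusted p of 0.05; at 20 mg/kg the FOSL2 probe sets run from -1.10 to 0.51, and 3 probe sets passed, 1 each of FOSL2, MAFF and MAFG, against 3.19% of all 16900 probe sets.

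Among the JUN genes, JUNB, an immediate early gene whose protein often opposes JUN in growth control, read 9.56 and 10.66 with vehicle, 8.66 and 9.25 at the lower and 8.76 and 8.73 at the higher dose. All 4 treated arrays were below both vehicle arrays, but the vehicle arrays differed from each other by about 1.1 log2 units. JUNB was at -1.37 (SE 0.46, 95% interval -2.68 to -0.05, adjusted p = 0.195) at 20 mg/kg and at -1.16 (SE 0.46, adjusted p = 0.347) at 4 mg/kg. The difference between the doses was -0.21 (95% interval -1.52 to 1.10, adjusted p = 0.934). Without vehicle replicate 1 the value at 20 mg/kg was -1.92 and without vehicle replicate 2 it was -0.81. For 4 mg/kg these values were -1.71 and -0.60, and none of them passed. Vehicle replicate 2, the array in which JUNB was highest, is also the one with the highest 18S reading. MAFF, ATF3 and JUND were highest in that array as well, while MAFG and FOSL2 were highest in vehicle replicate 1 and JUN in 20 mg/kg replicate 1. With arrays centred on their median JUNB passed at 20 mg/kg (-1.40, adjusted p = 0.0178).

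JUN, the main activating partner in AP-1, read 12.00 and 12.08 with vehicle, 12.08 in both 4 mg/kg arrays and 12.17 and 12.09 at 20 mg/kg through its brightest probe set, 201464_x_at. The change at 20 mg/kg was 0.088 (95% interval -0.037 to 0.21, adjusted p = 0.35), and at 4 mg/kg it was 0.037 (95% interval -0.087 to 0.16, adjusted p = 0.687), or -0.061 with centred arrays. Its other probe sets past the filter gave -0.0076 (201466_s_at) and -0.27 (213281_at) at the higher dose, and 0.24 and -0.24 in the same order at the lower. None passed, so JUN has no settled direction here. The brightest probe set read the same in vehicle replicate 2 and both 4 mg/kg arrays (intensity 4319). Its interval rests partly on these equal values, and whether they are measured levels was not tested. For this probe set, a change of the size of that in MAFF lies outside the interval.

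JUND, which is expressed in most resting cells, read 14.08 and 14.23 with vehicle, 13.79 and 14.06 at the lower dose and 14.11 and 14.10 at the higher. Its change was -0.051 at 20 mg/kg (95% interval -0.38 to 0.28, adjusted p = 0.866), or 0.025 without vehicle replicate 2, and -0.23 at 4 mg/kg (95% interval -0.56 to 0.093, adjusted p = 0.44). Leaving out the first 4 mg/kg array gave -0.10 at that dose, and leaving out the second gave -0.37. The probe sets 203751_x_at and 214326_x_at were at -0.19 and -0.26 at 20 mg/kg, neither past the test.

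ATF3, a stress-induced factor that pairs with JUN proteins, had its low values at the lower dose. It read 8.52 and 8.95 with vehicle, 7.94 and 8.17 at the lower and 8.70 and 8.64 at the higher dose. The 4 mg/kg arrays were below all others, and the 20 mg/kg arrays lay within the span of the vehicle arrays. The change was -0.68 at 4 mg/kg (SE 0.18, adjusted p = 0.216) and -0.070 at 20 mg/kg (95% interval -0.58 to 0.44, adjusted p = 0.9), or 0.14 without vehicle replicate 2. The difference of 20 from 4 mg/kg was 0.62 (SE 0.18, adjusted p = 0.295). With arrays centred on their median the value at 4 mg/kg (-0.78, adjusted p = 0.0282) and the difference between the doses (0.68, adjusted p = 0.0474) passed. A dimmer probe set, 1554980_a_at, stayed between 5.68 and 5.82 in all 6 arrays and gave -0.071 at 4 mg/kg.

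Counted over the family, 3 of the 7 tested members fell at 20 mg/kg (42.9%) and none rose. Of all tested genes limma called 4.33% in this comparison, 2.26% as higher and 2.07% as lower. Both counts moved with single arrays: without 1 of the 20 mg/kg arrays the members called were 0 and the genes 19 or 5 in place of 445, and without vehicle replicate 1 they were 2 and 802. Without vehicle replicate 2 they were 1 and 104, and without either 4 mg/kg array 1 and 136. None of the 7 passed at 4 mg/kg, against 0.0584% of all genes (6 genes, 0.0292% as higher and 0.0292% as lower), while 4 of the 7 had an unadjusted p under 0.05, as had 1745 of all 10271 genes. Between the doses 1 of 7 passed, lower at 20 mg/kg, against 0.37% of all genes (0.127% as higher and 0.243% as lower).

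Arrays that do not overlap between groups are common with 2 arrays each, and the members are read against that share. At 20 mg/kg 4 of 7 members were lower than vehicle without overlap, against 25.9% of all tested genes, and 1 was higher, JUN, against 24.5%. Against vehicle, 6 of 7 were lower at 4 mg/kg without overlap (all but JUN), against 14.8%, and none was higher, against 22.8%. Between the doses 2 were lower at 20 mg/kg, MAFF and MAFG, against 22.8%, and 4 were higher, FOSL2, JUN, JUND and ATF3, against 13.6%. The 3 comparisons share arrays, so these counts are not independent of each other. The median change of the 7 members was -0.30 at 20 mg/kg and -0.51 at 4 mg/kg against vehicle, while that of all tested genes was 0.00 in both.

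**Figure D3:**
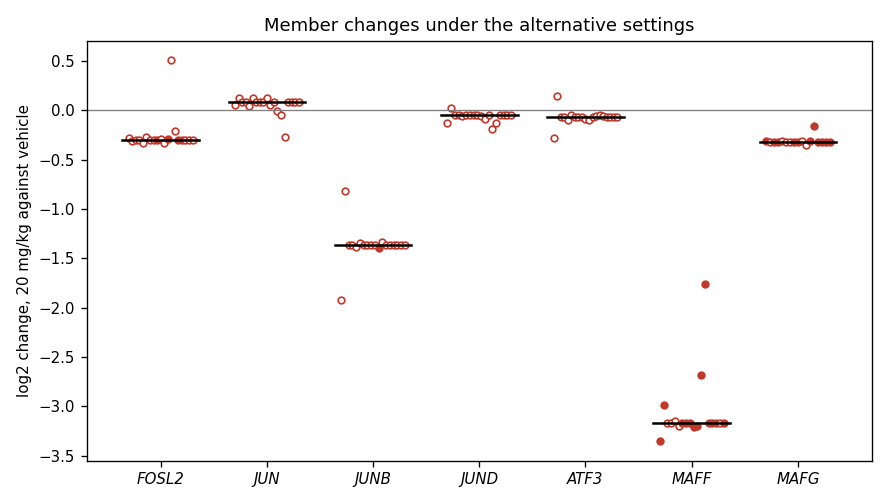
Log2 change at 20 mg/kg against vehicle (vertical axis) of the 7 tested members (horizontal axis), with the value reported as a black bar and each alternative processing as a point, filled where its adjusted p was under 0.05. MAFF runs from -3.36 to -1.76 and MAFG from -0.35 to -0.16, always below 0. FOSL2 runs from -0.33 to 0.51, the highest point being its next brightest probe set. MAFF and MAFG have no value in that setting, since their other probe sets lie under the level filter.

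Related basic leucine zipper genes went the other way where they passed, by their brightest probe sets. Of 11 measured subunits and relatives of AP-1 and ATF outside the family, 9 did not pass at 20 mg/kg. The other 2 rose, against 2.26% of all tested genes called higher in that comparison. The 2 were ATF2, a partner of JUN that stress kinases activate (log2 1.01, SE 0.10, adjusted p = 0.0363), and CREB1, the cyclic AMP responsive factor (log2 0.89, SE 0.064, adjusted p = 0.0228). ATF2 read 9.90 and 9.62 with vehicle, 10.40 and 10.43 at the lower dose and 10.80 and 10.75 at the higher, with no overlap between groups. CREB1 read 9.24 and 9.15 with vehicle, 9.83 and 9.79 at the lower and 10.02 and 10.16 at the higher dose. None of the 11 passed at 4 mg/kg, where ATF2 was at 0.65 and CREB1 at 0.61, nor between the doses, where DDIT3 was at 0.45 and ATF2 at 0.36. The value of DDIT3 came mostly from 20 mg/kg replicate 1, which read 7.72 against 7.02 in replicate 2, and was 0.11 without the first and 0.80 without the second.

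The next brightest probe set of ATF2 was at -0.049 at 20 mg/kg and -0.38 at 4 mg/kg, so its direction depends on the probe set, while that of CREB1 was at 0.83 and 0.76, none of them past the test. Both calls at 20 mg/kg were lost without either 4 mg/kg array (1.01 and 0.89) and without either 20 mg/kg array (0.99 and 1.04 for ATF2, 0.96 and 0.82 for CREB1), and that of CREB1 without vehicle replicate 2 (0.85). ATF2 passed at 4 mg/kg without vehicle replicate 1 (0.79). With the mean of all probe sets ATF2 was at 0.32 and CREB1 at 0.36 at 20 mg/kg, neither past the test.

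Among large MAF genes and the CNC and BACH partners of the small MAFs, 5 of 7 did not pass at 20 mg/kg. The other 2 rose, again against 2.26% of all tested genes called higher. MAF, a large MAF with a transactivation domain that the small ones lack, read 10.13 and 9.64 with vehicle, 10.88 and 10.91 at the lower dose and 12.02 and 11.95 at the higher. It stepped up with dose as MAFF stepped down, 4.29-fold at 20 mg/kg (log2 2.10, SE 0.18, adjusted p = 0.0275). It was at 1.01 at 4 mg/kg (adjusted p = 0.166) and between the doses at 1.09 (adjusted p = 0.14). BACH1, a repressor that needs a small MAF partner to bind DNA, read 9.55 and 9.36 with vehicle, 9.63 and 9.66 at the lower and 10.40 and 10.59 at the higher dose (log2 1.04, SE 0.10, adjusted p = 0.0326, against vehicle). NFE2L2, which encodes NRF2, was at 0.70 at 4 mg/kg (adjusted p = 0.241), or 0.43 without vehicle replicate 2, and none of the 7 passed there or between the doses, where BACH1 was at 0.85 (adjusted p = 0.0976).

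The next brightest probe set of MAF was at 1.38 at 20 mg/kg (adjusted p = 0.143) and at -0.17 at 4 mg/kg, and the mean of its probe sets was 0.83, still called. The mean of BACH1's probe sets was 0.35, still called. The calls at 20 mg/kg were lost without either 4 mg/kg array (2.10 for MAF, 1.04 for BACH1), without either 20 mg/kg array (2.07 and 2.13 for MAF, 1.14 and 0.95 for BACH1) and, for BACH1, without vehicle replicate 2 (0.95). Without vehicle replicate 1 MAF (1.25) and NFE2L2 (0.98) passed at 4 mg/kg.

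Of 15 kinases and factors upstream of AP-1 genes, MAP2K6, a kinase that activates p38, was the 1 that rose at 20 mg/kg (log2 0.30, SE 0.039, adjusted p = 0.0477), from 4.48 in both vehicle and both 4 mg/kg arrays to 4.83 and 4.73. Its SE rests partly on those equal values, and the call was lost without any 1 of the 6 arrays (0.25 to 0.35). Of 15 alternatives only 1, the intensity trend, kept the call, and with the offset of 16 the value was 0.18. Among all tested genes 2.26% were called higher in this comparison. RPS6KA5, or MSK1, which ERK and p38 activate, was at 0.96 (adjusted p = 0.198), with 1.35 and 0.57 when the first or the second 20 mg/kg array was left out, 0.26 for its next brightest probe set, and 0.93 and past the test with centred arrays (adjusted p = 0.02). RPS6KA3, or RSK2, was at 1.02 and the ternary complex factor ELK3 at 0.62 at 4 mg/kg, and between the doses RPS6KA5 was at 0.52 (0.13 to 0.91 over the fits without 1 array) and ELK3 at -0.45 (-0.61 to -0.28), none past the test. The next brightest probe set of ELK3 was at -0.72 at 4 mg/kg, and the mean of its probe sets at -0.051.

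Genes reported as AP-1 targets moved in both directions. Of 21 measured, 6 fell, 1 rose and 14 did not pass at 20 mg/kg, with a list median of -0.34 against 0.00 for all tested genes. Among all tested genes 2.07% were called lower and 2.26% higher. The listed genes had been chosen with earlier results of these data known, so the count is a description. Those named by size were CCND1, or cyclin D1 (log2 -3.56, SE 0.26), the cytokine IL6 (-3.08, SE 0.20), the chemokine CXCL8 (-2.34, SE 0.25), the prostaglandin synthase PTGS2 (-1.99, SE 0.25) and the urokinase receptor PLAUR (-1.40, SE 0.041), with adjusted p between 0.0104 and 0.045. The sizes depend on the probe set: the next brightest one was at -5.05 for CXCL8, -3.15 for PTGS2, -2.48 for CCND1 and -0.77 for PLAUR, each past the test. MMP13, a collagenase, rose (2.37, SE 0.18, adjusted p = 0.0246), and TIMP1, an inhibitor of such proteases, was the sixth to fall (-0.34, adjusted p = 0.0404), named here after its value was seen.

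The dose patterns of these genes differ from one to the next. CCND1 read 11.78 and 11.97 with vehicle, 11.64 in both 4 mg/kg arrays and 7.97 and 8.65 at 20 mg/kg, so that nearly all of its fall lay between the doses (log2 -3.33, adjusted p = 0.059). CXCL8 likewise was not below vehicle at 4 mg/kg, at 14.01 and 14.08 against 13.99 and 13.33, and its difference between the doses was -2.73 (adjusted p = 0.0791). IL6 stepped down as MAFF did, from 7.04 and 6.60 with vehicle to 5.92 and 5.58 at 4 mg/kg and 3.74 in both 20 mg/kg arrays. These last values are equal and dim, so the size of its change depends on the scale. With an offset of 16 before the log, IL6 was at -2.14 at 20 mg/kg in place of -3.08, still called.

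PLAUR was the 1 of the 21 that fell at 4 mg/kg (log2 -1.03, SE 0.041, adjusted p = 0.0485), where MMP13 was at 1.24 (adjusted p = 0.15). With all _x_at and _s_at probe sets left out, PLAUR was at -0.040 at 4 mg/kg and -0.088 at 20 mg/kg, neither past the test. Why its probe sets differ was not tested. Its call at 4 mg/kg was lost without vehicle replicate 2 (-1.03), without 4 mg/kg replicate 2 (-0.98) and without either 20 mg/kg array (-1.03). It was kept in only 3 of 19 alternatives. Among the others were the replicate number as a block, no level filter, quantile normalization and the next brightest probe set. At that dose 0.0292% of all tested genes were called lower. The calls of these 6 named genes at 20 mg/kg were all lost without either 20 mg/kg array, when 19 and 5 genes were called in all. Their values then ran from -3.22 to -3.91 for CCND1, stayed at -3.08 for IL6, and lay at 2.23 and 2.52 for MMP13, -2.42 and -2.27 for CXCL8, -2.04 and -1.94 for PTGS2 and -1.42 and -1.39 for PLAUR. Those of CCND1, IL6, MMP13, CXCL8 and PTGS2 were also lost without either 4 mg/kg array, with unchanged values, those of CCND1 (-3.47), IL6 (-3.30) and MMP13 (2.56) without vehicle replicate 2, and that of CCND1 without vehicle replicate 1 (-3.66). With no level filter the calls of CCND1, IL6, MMP13, CXCL8 and PTGS2 were lost as well. With the replicate number as a block those of CCND1, MMP13, CXCL8 and PTGS2 were lost, and with probe sets as features that of PTGS2.

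Antioxidant response element genes, which NRF2 and small MAF dimers activate, had 1 of 16 lower at 20 mg/kg and 15 that did not pass, with a median of -0.15. The share of all tested genes called lower in that comparison was 2.07%. AKR1B10, an aldo-keto reductase, fell by 0.99 (SE 0.11, adjusted p = 0.0386), and its call was lost without any 1 of the 6 arrays (-1.08 to -0.90). SRXN1, or sulfiredoxin, was at -1.02 (adjusted p = 0.102) and passed with centred arrays (-1.05). None passed at 4 mg/kg, with the glutathione synthesis genes GCLM at 0.57 and GCLC at 0.49, and between the doses AKR1B10 was at -1.04 (adjusted p = 0.0812) and GCLM at -0.68 (adjusted p = 0.239).

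**Figure D4:**
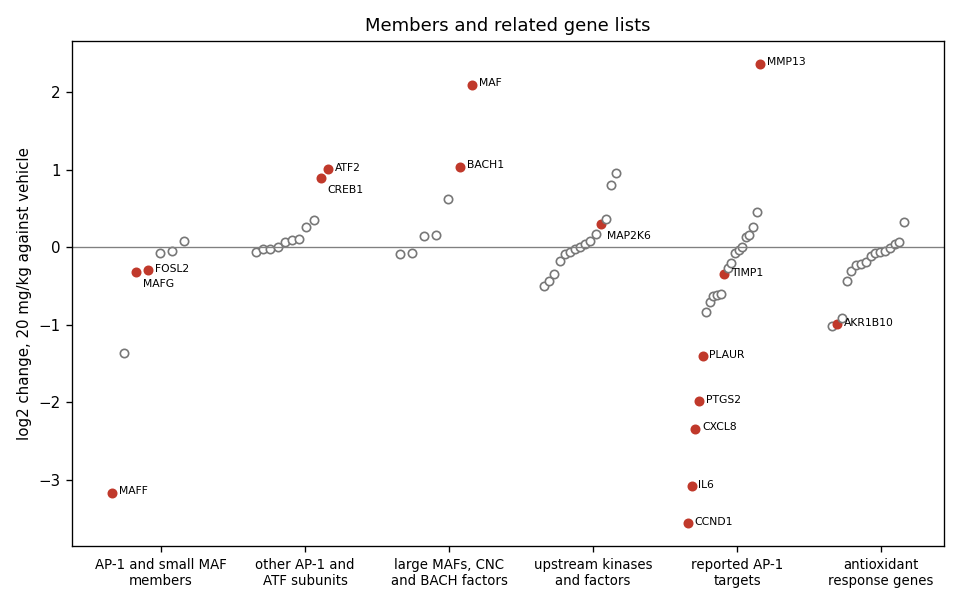
Log2 change at 20 mg/kg against vehicle (vertical axis) of each tested gene in the family and in 5 related lists (horizontal axis), 1 point per gene, ordered by value within a list. Filled and named points passed an adjusted p of 0.05; the called members lie below 0 and the called ATF, CREB, MAF and BACH genes above it.

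MAFF had the widest span of group means in the family, 3.17 log2 units, and was set against the 735 other tested genes whose group means span at least 1 log2 unit. By Pearson's r over the 6 arrays, which share the dose groups, the most similar were TUBB3, a neuronal tubulin (r = 0.998), MYC, the growth-promoting transcription factor (r = 0.997), PPP1R14B, a phosphatase inhibitor (r = 0.997), PTPRE, a receptor tyrosine phosphatase (r = 0.996), and FOXQ1, a forkhead factor (r = 0.995). The r values describe likeness of shape and not of size. Since the 5 genes were picked for stepping down with MAFF in these arrays, their changes below are a description and their calls support nothing further.

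MYC came closest to MAFF in size: it read 9.84 and 10.21 with vehicle, 9.05 in both 4 mg/kg arrays and 7.39 and 7.54 at 20 mg/kg. The changes at 20 mg/kg, fixed in direction by that choice, were -2.56 for MYC, -2.04 for PTPRE, -1.18 for TUBB3, -1.16 for FOXQ1 and -1.11 for PPP1R14B, each past the test, and none passed at 4 mg/kg, where MYC was at -0.98 (-1.16 and past the test without vehicle replicate 1), PTPRE at -0.63, FOXQ1 at -0.44, TUBB3 at -0.34 and PPP1R14B at -0.33. Between the doses TUBB3 (-0.84, adjusted p = 0.0342) and PPP1R14B (-0.78, adjusted p = 0.0259) passed as well, calls lost without either vehicle array, without either 20 mg/kg array, without 4 mg/kg replicate 2 and, for TUBB3, without 4 mg/kg replicate 1 (TUBB3 -0.86 to -0.81, PPP1R14B -0.80 to -0.75), while MYC was at -1.58, PTPRE at -1.41 and FOXQ1 at -0.71. All 5 calls at 20 mg/kg were lost without either 20 mg/kg array, with MYC then at -2.48 and -2.64, PTPRE at -2.04 in both, TUBB3 at -1.15 and -1.20, FOXQ1 at -1.20 and -1.11 and PPP1R14B at -1.09 and -1.13. Those of MYC and FOXQ1 were lost without either 4 mg/kg array, with unchanged values, and those of FOXQ1 (-1.06) and PTPRE (-1.97) without vehicle replicate 2. Over all of PTPRE's probe sets the mean was -0.69 at 20 mg/kg, still called.

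**Figure D5:**
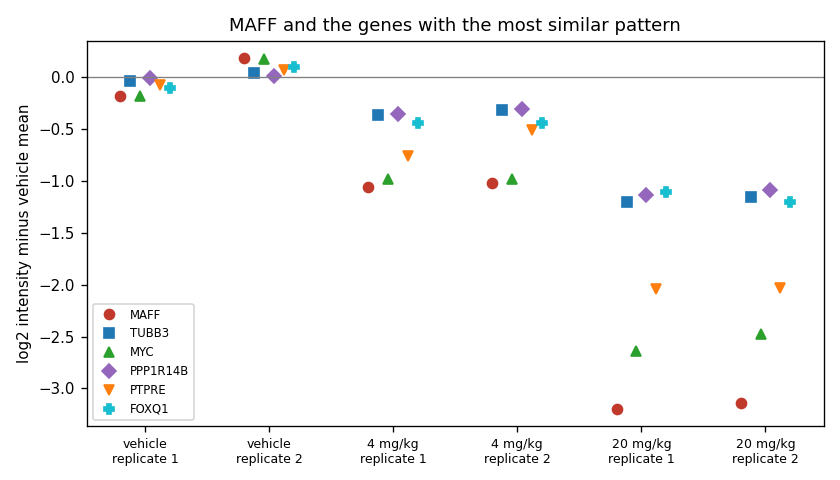
Log2 intensity minus the vehicle mean (vertical axis) of MAFF and the 5 genes with the highest Pearson r to it, in each of the 6 arrays (horizontal axis). Each symbol is 1 gene; all 6 step down from vehicle to 4 mg/kg and again to 20 mg/kg, MAFF the furthest.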

How the data were processed

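The intensity table was deposited by the authors, linear in scale, holding 54675 probe sets for each of 6 arrays. Per the submitters' processing notes, GCRMA and R 2.10.0 were used. The arrays that went into 1 normalization are not named in the labels. Intensities were converted to log2. Gene names came from the platform annotation: 41097 probe sets had 1 gene, 1801 several and 11777 none listed. Each gene was represented by its brightest probe set, genes with a mean log2 under 4 were left out, and limma 3.58.1 in R 4.3.3 (lmFit, eBayes) was fitted to all 6 arrays, two-sided, with Benjamini-Hochberg adjustment over 10271 genes. It had 3 residual and 0.723 prior degrees of freedom, and an SE is limma's moderated SE pooled over the 3 groups. In 3316 genes both arrays of a group had equal values (within 1e-06 log2), which lowers some SEs. The number of arrays limits the precision. With 2 arrays against 2, an exact permutation test cannot go below p = 0.333. A second fit used all 16900 probe sets past the filter. The fit was tested on simulated data.

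All members, every named member's probe sets, up to 6 called genes per related list (at least 2 genes in all) and the 5 genes most like MAFF are named. The members and lists were chosen with earlier results of these data known. Alternatives left out each array, changed the filter, scaling, log offset, probe set, moderation or samples, or added the replicate number as a block.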

Additional observations from a re-analysis of the deposited data

How the results depend on the processing

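Over 19 alternatives the members kept their direction and their side of the threshold in 327 values, lost a call in 36, gained one in 8 and turned sign in 13, none of them past the test; the other named genes did so in 698, 165, 39 and 6. Leaving out 1 array leaves a group with 1, assumed to vary like the others, and the cause of a lost call was not tested. In a comparison that the left-out array does not belong to, this fit equals that of the compared arrays alone. Each such fit was counted, so the alternatives are not all distinct. Of the members 3 were called at 20 mg/kg against vehicle (445 genes in all), 0 at 4 mg/kg (6 genes, 1745 at an unadjusted p under 0.05) and 1 between the doses (38 genes). Without 1 array each, these member counts ran from 0 to 2, 0 to 2 and 0 to 0, and the gene counts from 5 to 802, 0 to 475 and 0 to 218. Same-numbered arrays deviated from their group means with r = 0.15, -0.12 and 0.13 between pairs of groups, so the numbers were not taken to pair the samples. With the replicate block the members called were 1, 0 and 0, and the genes 93, 0 and 0: MAFG (adjusted p = 0.0602) and FOSL2 (0.0782) were lost at 20 mg/kg and MAFF between the doses (0.12), while MAFF was called at 20 mg/kg (0.0488). No level filter gave 57, 3 and 8 genes and 2, 0 and 1 members: FOSL2 was lost at 20 mg/kg (adjusted p = 0.104), and between the doses MAFF was lost (0.155) and MAFG gained (0.0382). The stricter filter gave 645, 0 and 50. Quantile normalization gave 1536, 41 and 333 genes with 1, 0 and 1 members, and centred arrays 1958, 766 and 494 with 2, 3 and 2. These scalings moved the split of higher and lower calls at 4 mg/kg from 3 and 3 to 30 and 11 and to 517 and 249, and between the doses from 13 and 25 to 151 and 182 and to 227 and 267. The offset of 16 gave 448, 0 and 36 genes, with MAFF lost between the doses (-1.71, adjusted p = 0.0576) and 0 members there. The next brightest probe sets, which 4 members had, gave 91, 0 and 7 genes and 0 members. The mean of probe sets gave 0 genes at 4 mg/kg. Without _x_at and _s_at probe sets 285 genes were called at 20 mg/kg. With probe sets as features 0 were called at 4 mg/kg, and MAFF was lost between the doses (adjusted p = 0.0546, 0 members). The intensity trend gave 2 genes at 4 mg/kg. The compared arrays alone gave 136, 0 and 0 genes and 1, 0 and 0 members. Without the 531 genes tied in all groups, chosen after seeing the data, it was 819, 0 and 77.

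The values that turned sign were these. Without vehicle replicate 2, ATF3 (0.14, against -0.28 without vehicle replicate 1) and JUND (0.025, against -0.13) did so at 20 mg/kg, and without 4 mg/kg replicate 2, JUNB between the doses (0.083, against -0.50 without 4 mg/kg replicate 1). With the next brightest probe set FOSL2 (0.51), JUN (-0.0076) and ATF2 (-0.049) did so at 20 mg/kg, ATF2 (-0.38), ELK3 (-0.72) and MAF (-0.17) at 4 mg/kg and JUN between the doses (-0.25). With the mean of probe sets it was JUN at 20 mg/kg (-0.051) and between the doses (-0.057), JUND between the doses (-0.015) and ELK3 at 4 mg/kg (-0.051). Without _x_at and _s_at probe sets it was JUN in all 3 comparisons (-0.27, -0.24 and -0.031) and MAF at 4 mg/kg (-0.17), and with centred arrays JUN at 4 mg/kg (-0.061). The floor limits what can be said of FOS, FOSL1 and the dim MAFF probe set.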
